A study of Homo sapiens with 12 samples.

Results

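The libraries described here are the 3 that carried scramble shRNA and received no LPS, of 12 RNA-seq libraries in all, and they were chosen by their label alone. They show, in bulk RNA of the control culture, which genes were most abundant, which adipocyte, matrix and secreted genes were present, and which genes gave no counts. The cells were ASC52telo hTERT, an ATCC line of adipose-derived mesenchymal stem cells from human fat that was immortalized with telomerase, labelled WT. All 3 libraries come from this 1 line and, per the study, from 1 experiment in triplicate, so the spread between them is the spread within that experiment. The shRNA was delivered by a lentiviral vector that also encodes ZsGreen, and ZsGreen-positive cells were sorted before differentiation. Confluent cells were kept for 7 days with insulin (1.7 µM), dexamethasone (1 µM), isobutylmethylxanthine (500 µM) and rosiglitazone (2 µM) together with pantothenate and biotin. They then spent 7 days with the same insulin and dexamethasone but without isobutylmethylxanthine and rosiglitazone, and RNA was taken at day 14. The other 3 groups, of 3 libraries each, carried scramble shRNA with LPS (100 ng/mL for 4 h) or an shRNA against linc-ADAIN, a long noncoding RNA, without or with LPS. They share the line, the vector and the media and are not used below.

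Adipocytes arise from stromal progenitors when C/EBPβ and C/EBPδ induce PPARγ and C/EBPα, which then switch on the genes of fatty acid uptake, triglyceride synthesis and lipid droplet coating. Insulin, a glucocorticoid, a cyclic AMP-raising drug and a PPARγ agonist are the usual inducers, and rosiglitazone is such an agonist. Mature fat cells also secrete hormones such as adiponectin and leptin and lay down a matrix of collagen VI, laminins and collagen IV, while the progenitors they come from make fibronectin and fibrillar collagens.

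Counts on named genes totalled 53837400, 53524934 and 48094472 in libraries 1, 2 and 3, and values are given in this order throughout. Levels of a gene are in counts per 1e+06 counts of the library (CPM). Levels of different genes are compared in TPM, which divides the counts by transcript length and scales each library to 1e+06. An order or share by CPM is named as such and says how many reads a gene took, since it mixes level and length. Of 28901 gene names, 11403 (39.5%) had at least 1 CPM in every library, which is what detected means below, and 11068 (38.3%) had 0 counts in every library. Among 19215 protein-coding names 57.9% were detected, and they held 99.2% of the counts. The shares of 39.5% and 57.9% are the background for every count of list members detected below. Means of at least 10 CPM were reached by 8400 names, of at least 100 CPM by 1756, of at least 1000 CPM by 113 and of at least 10000 CPM by 4. The counts were spread over many genes: 430, 442 and 408 genes made up 50% of them, and the 10 highest genes held 11.3%, 10.7% and 11.5%. Between pairs of libraries the correlation of log2(CPM + 1) over the detected genes was 0.991 to 0.994 (Pearson's r across genes, which are not independent replicates), and 93 to 96 of the 100 highest genes by TPM were shared.

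The most abundant messages per length were those of the respiratory chain encoded by mitochondrial DNA, followed by ferritin, cytoskeletal, matrix and secreted genes and by the fatty acid carrier FABP4. Of the 30 highest genes by mean TPM, 12 were mitochondrially encoded. MT-CO1, a subunit of cytochrome c oxidase, stood at 28548, 27398 and 33104 TPM and MT-CO3, another subunit, at 29357, 27092 and 30977 TPM, and their ranges overlapped. FTL, the ferritin light chain that stores iron, was the highest nuclear gene at 13165 ± 122 TPM (SD, n = 3), ahead of the heavy chain FTH1 at 7721 ± 212 TPM, a ratio of 1.71 ± 0.0320, or 2.84 ± 0.0533 with the union of exons as length. Both ferritin genes have many pseudogenes, among which the pseudoalignment could divide reads, as it could for EEF1A1, actins, tubulins, metallothioneins and ribosomal proteins. Also high among nuclear genes were the metalloproteinase inhibitor TIMP1, beta-actin ACTB, the elongation factor EEF1A1, the metal-binding protein MT2A and the small heat shock protein CRYAB, with means of 5156 to 5710 TPM. The library ranges of these 5 genes overlapped, so their order is not resolved. FABP4 followed at 3997, 4442 and 4998 TPM, which placed it 25th, 21st and 19th in the respective libraries. After it came fibronectin FN1 at 4365 ± 169 TPM, the ribosomal protein RPLP0, the actin-binding TMSB10, RPS2, ACTG1, the calcium-binding S100A6, RPL41, vimentin VIM and the pentraxin PTX3. PTX3 was 43rd in library 1 but 28th and 29th in the other two. In this order of 30, 23 of 29 neighbouring pairs had overlapping ranges, and the 6 pairs that were apart each included a mitochondrially encoded gene.

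**Figure D1:**
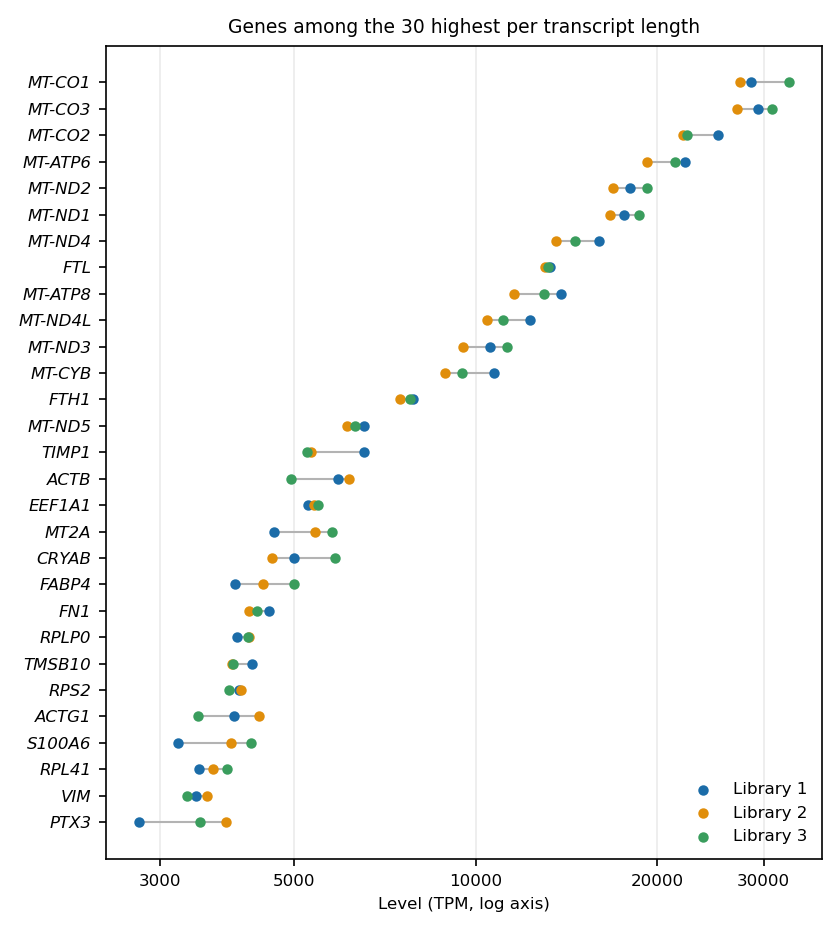
Genes among the 30 with the highest mean level per transcript length (TPM, log axis; 29 shown), 1 point per library and gene with a grey line from the lowest to the highest library. Mitochondrially encoded genes fill the upper part, FTL is the highest nuclear gene at 13037 to 13280 TPM, and most neighbours under FTH1 overlap.

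By CPM, which favours long transcripts, matrix genes stood higher in the order than by TPM. FN1, the main adhesive glycoprotein of stromal matrix (chr2:215360440-215436073, minus strand, GRCh38), reached 18056, 16426 and 17520 CPM and took the most reads after MT-CO1. THBS1, thrombospondin, had 11595, 12040 and 9316 CPM and came next after FN1 by the mean. Among the 30 highest by CPM were also the collagen VI chains COL6A3, COL6A1 and COL6A2, tenascin TNC, the translation-associated TPT1, the secreted CCDC80, the gelatinase MMP2, tropomyosin TPM4, TGFBI, decorin DCN and the desaturase SCD.

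Messages for the protein-making machinery and for the mitochondrion took a large and fairly stable part of the counts. The 13 mitochondrially encoded genes held 9.06%, 8.09% and 9.40% of the counts, or 20.4% ± 1.25 (SD, n = 3) of the summed TPM. Each of the 13 was lowest in library 2, the lowest library for 25.3% of all detected genes. MT-ND6, the gene read from the other strand of the mitochondrial genome, was the only one of the 13 under 1000 CPM, at 14.6, 10.2 and 10.4 CPM. The 87 cytosolic ribosomal protein genes held 5.29%, 5.44% and 5.86%, or 12.6% ± 0.563 of the summed TPM, and 85 were detected. Of these 85, 74 were highest in library 3, which was the highest library for 29.97% of all detected genes. The tissue-specific copy RPL3L had 0 counts in every library.

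**Figure D2:**
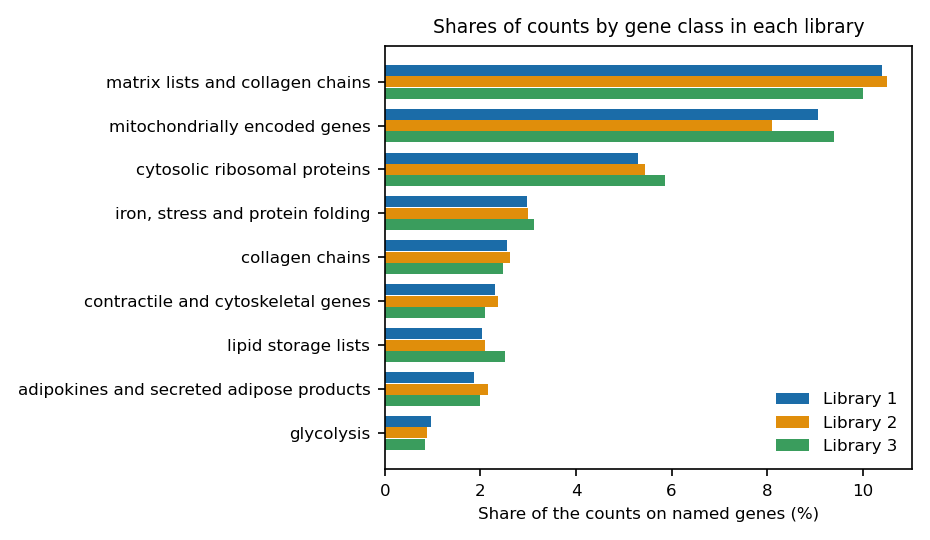
Share of each library's counts on named genes (%, axis from 0) held by 9 classes or lists, 1 bar per library, with collagen chains also contained in the matrix class. Matrix genes with collagens hold 10.01% to 10.5%, mitochondrially encoded genes 8.09% to 9.40% and the lipid storage lists 2.03% to 2.51%, highest in library 3.

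The annotated start sites of the abundant genes carried letters that are shown here because they differ between the gene groups. RefSeq promoters (GRCh38.p14) were given for 80 of the 100 highest nuclear protein-coding genes by TPM. A start of C followed by 4 bases that are each C or T, the pattern of messages whose translation follows nutrient signalling, was present on the coding strand in 28 of the 80 (35.0%). Its share was 4.05% of all 27195 promoters and 5.64% of those of detected protein-coding genes. This start was present in 44 of 69 ribosomal protein promoters (63.8%) and in 5 of 44 (11.4%) of the highest genes once ribosomal proteins were left out. Each line gives 10 bases before and 20 from the start, in the direction of transcription, with the pyrimidine run from the start in capitals, for RPLP0 (chr12:120201092-120201121, minus strand), RPL41 (chr12:56116623-56116652, plus strand), EEF1A1 (chr6:73521013-73521042, minus strand) and, for contrast, FN1 (chr2:215436049-215436078, minus strand) and TIMP1 (chrX:47582426-47582455, plus strand).
RPLP0: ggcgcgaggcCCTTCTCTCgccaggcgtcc
RPL41: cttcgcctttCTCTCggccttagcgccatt
EEF1A1: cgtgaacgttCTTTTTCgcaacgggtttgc
FN1: gcgctcggacgcccgcgccggctgtgctgc
TIMP1: aggccctgccgccatcgccgcagatccagc

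The letters TATAAA, searched 45 to 16 bases before the start, occurred on the coding strand in 7 of the same 80 promoters (8.75%), in 2.64% of all promoters and in 1.54% of detected protein-coding genes. On the other strand (TTTATA on the coding strand) the share of all promoters was 0.802%, and it was 2.50% among the 80. Among the lists described below, the cytokine and chemokine list held TATAAA in 11 of 31 promoters (35.5%), the glucocorticoid targets in 4 of 19 and the matrix glycoproteins in 5 of 48, while triglyceride synthesis (19 promoters) and lipid droplet genes (16 promoters) held it in 0. Protein-coding genes with 0 counts in every library held it in 10.004%. The window is printed with the motif in capitals for 3 abundant genes, MT2A (chr16:56608539-56608568, plus strand), IGFBP4 (chr17:40443405-40443434, plus strand) and COL6A2 (chr21:46098067-46098096, plus strand), for the chemokine CXCL8 (chr4:73740524-73740553, plus strand), and without a match for ADIPOQ (chr3:186842665-186842694, plus strand) and SCD (chr10:100347188-100347217, plus strand). A match describes these letters only.
MT2A: cccggctctttctagcTATAAAcactgctt
IGFBP4: tgtggccagggaccggTATAAAgtccgggg
COL6A2: cggcggggcggggTATAAAgggggcggcgc
CXCL8: tagtagggtgatgaTATAAAaagccaccgg
ADIPOQ: gtgagtaccaggctgttgaggctgggccat
SCD: ctcctccccctcccgcccttacctccacgc

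The cells carried the markers of adipocytes together with those of the stromal cells they were made from. Of 12 adipocyte markers 10 were detected, against 39.5% of all gene names and 57.9% of protein-coding names. FABP4, the fatty acid carrier of fat cells, had 1724, 1882 and 2192 CPM. ADIPOQ, which encodes adiponectin (chr3:186842704-186858463, plus strand), had 714, 872 and 1104 CPM. The lipid droplet genes PLIN4, PLIN1 and CIDEC had 335 to 417, 112 to 216 and 111 to 203 CPM, and the glycerol channel AQP7 had 41.1, 58.1 and 81.4 CPM. GPD1, which makes glycerol phosphate for triglycerides, and the hormone-sensitive lipase LIPE were steadier, at 118 to 133 and 59.0 to 74.6 CPM. Library 3 was the highest for 9 of the 10 detected markers and library 1 the lowest for 8, against 29.97% and 32.1% of all detected genes. The summed CPM of the list was 3290, 3754 and 4498.

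LPL and LEP, the remaining adipocyte markers, were near the limit of detection. LPL, the lipoprotein lipase that releases fatty acids from circulating triglyceride, had 23, 20 and 0 counts, and the 0 of 48094472 counts in library 3 allows up to 0.0624 CPM. LEP, the gene of leptin, had 1, 10 and 21 counts. Both are among the best-known genes of mature fat, so the adipocyte label rests on the other markers here. A listing near 0 can also come from the annotation or from how reads were shared: COX6B1, a respiratory chain subunit used by nearly all cells, was listed at 0.297, 0.318 and 0 CPM.

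The stromal markers were present beside them, at 0.405% ± 0.0453 (SD, n = 3) of the summed TPM against 0.564% ± 0.0731 for the adipocyte markers. Most of the adipocyte share was FABP4 alone, at 4479 ± 502 TPM. The median over the list was 850 CPM for the stromal markers and 95.6 CPM for the adipocyte markers. Of the 12 stromal markers, 11 were detected and all 11 averaged over 100 CPM. Decorin DCN was the highest per length at 806 ± 160 TPM (3000, 2770 and 2059 CPM), and the list included the surface receptors PDGFRB (902, 981 and 977 CPM), PDGFRA (785, 704 and 744 CPM), THY1 (714 to 788 CPM) and CD44 (1018 to 1166 CPM). CD34, a marker that adipose stromal cells have in tissue, was at 0.353, 0.691 and 0.624 CPM. The stromal list ran opposite to the adipocyte list across the libraries, with 9 of 11 detected markers highest in library 1 and 8 lowest in library 3, against 35.7% and 42.5% of all detected genes. Its summed CPM was 11441, 10794 and 9304. The part this has in other differences between the libraries was not tested, and in bulk RNA fewer cells of a type and less RNA per cell cannot be told apart.

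**Figure D3:**
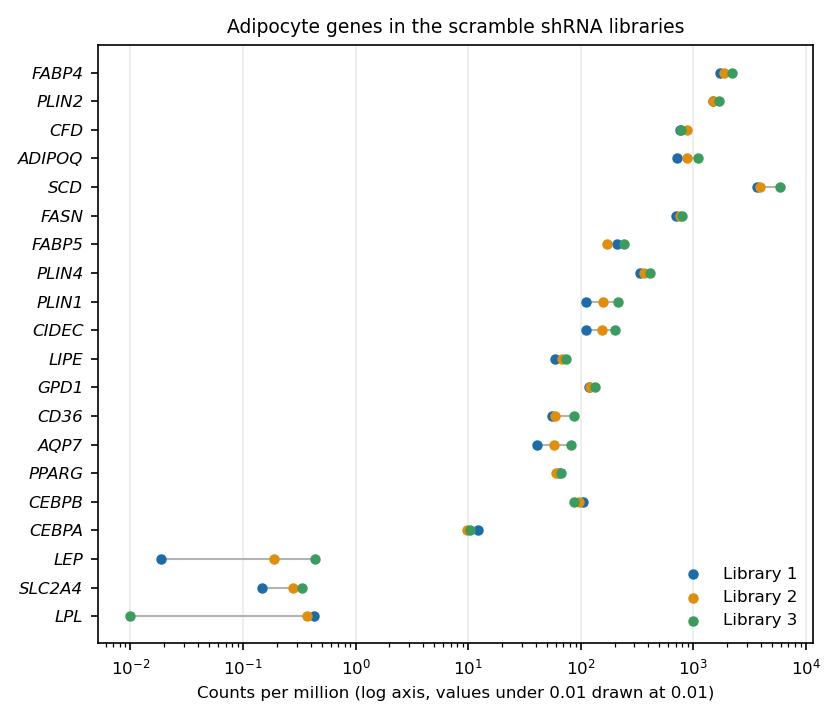
CPM (log axis) of 20 genes of adipocyte differentiation, lipid storage and adipose secretion, 1 point per library, with values under 0.01 drawn at 0.01. SCD reaches 5902 CPM in library 3, ADIPOQ, PLIN1, CIDEC and AQP7 are lowest in library 1 and highest in library 3, and LEP, SLC2A4 and LPL stay under 1 CPM.

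The transcription factors of adipogenesis were present at modest levels, with 19 of 23 detected and a median of 29.5 CPM. CEBPB (111 ± 11.7 TPM, SD, n = 3) and CEBPD (105 ± 5.85 TPM), the early factors, and PPARG (75.8 ± 2.17 TPM), the central regulator, were the highest per length. PPARG was among the steadiest of the list at 64.0, 60.6 and 66.4 CPM. CEBPA, its partner in mature cells, had 12.3, 9.83 and 10.4 CPM, and the ratio of PPARG to CEBPA in TPM was 8.66 ± 0.925. This ratio rests on the transcript taken for PPARG: with the union of all exons as length the means of PPARG and CEBPA were 17.6 and 13.8 TPM. The place of PPARG among the highest factors rests on it too. KLF15 of the same list had 24.5 TPM by canonical length and 34.7 TPM by the union, above PPARG. PPARD (61.6 ± 7.83 TPM), the lipogenic SREBF1 (56.2 ± 5.18 TPM), the glucocorticoid-induced KLF9 (55.0 ± 3.61 TPM), KLF4 (48.4 ± 4.67 TPM) and NR1H3, the oxysterol receptor (32.0 ± 3.31 TPM), completed the upper 8. KLF5, a factor of early adipogenesis, was not detected by the rule, with 31, 45 and 33 counts. The study's own noncoding transcript LINC01230 was not analysed here.

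Genes that make and desaturate fatty acids were prominent, and all 25 members of the synthesis list were detected, 14 of them at a mean of at least 100 CPM. SCD, the stearoyl-CoA desaturase, was the highest, with 3704, 3904 and 5902 CPM and 1810 ± 460 TPM. FADS1, another desaturase, showed the same order with 623, 637 and 998 CPM. ELOVL5, which elongates polyunsaturated fatty acids, stood at 702 ± 59.1 TPM, and the acyl-CoA synthetase ACSL1 at 360 ± 57.1 TPM. ACLY, which supplies acetyl-CoA from citrate, was nearly level at 685, 636 and 685 CPM, and FASN, the fatty acid synthase, had 704, 769 and 796 CPM. GPAM, the first acyltransferase of glycerolipid synthesis, had 589, 528 and 656 CPM. The list summed to 9156, 9425 and 12531 CPM, and 21 of its 25 members were highest in library 3, against 29.97% of all detected genes.

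Droplet coats and lipases were detected for 15 of 19 members. PLIN2, the coat protein of small droplets in most cells, exceeded PLIN1, the coat of the large droplet of fat cells, by a TPM ratio of 20.4, 14.6 and 12.1 in the 3 libraries, a mean of 15.7 that was 7.74 with the union of exons as length. PLIN2 itself varied little (1489, 1508 and 1698 CPM), while PLIN1 had 112, 159 and 216 CPM. G0S2, an inhibitor of the triglyceride lipase, was second in the list at 1262 ± 206 TPM, above that lipase, PNPLA2, at 278 ± 26.4 TPM. LIPA, the lysosomal lipase, was at 163 ± 7.36 TPM and PLIN3 at 80.1 ± 8.45 TPM. PLIN5 was under 1 CPM on average, and CIDEA, a droplet protein of thermogenic fat, had 5, 0 and 0 counts.

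For uptake and transport of fatty acids and glycerol, 16 of 20 members were detected. FABP4 exceeded its relative FABP5 by a TPM ratio of 6.99 ± 1.05, or 13.1 ± 1.98 with the union of exons as length. The caveolar genes CAV1 (1754 ± 73.3 TPM) and CAVIN1 (393 ± 41.3 TPM), which form the membrane pits abundant in fat cells, ANGPTL4, a secreted inhibitor of LPL (473 ± 55.4 TPM), the lipoprotein receptor LRP1 (251 ± 12.2 TPM) and PDK4, which spares glucose (173 ± 41.8 TPM), were next. CD36, the fatty acid translocase, had 55.9, 59.0 and 87.6 CPM. GPIHBP1, the capillary anchor of LPL, had 0 counts. The lipid droplet, synthesis and uptake lists together held 2.03%, 2.10% and 2.51% of the counts, with 56 of 64 genes detected.

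Most genes of the insulin pathway were present, while the listed counts of its responsive glucose transporter were low. Of 21 genes of insulin and adrenergic signalling 17 were detected, with a median of 19.8 CPM. AKT1 (88.1 ± 7.05 TPM), SLC2A1, the general glucose transporter (47.6 ± 3.84 TPM), PIK3R1 (39.8 ± 4.07 TPM) and AKT2 (35.2 ± 2.25 TPM) were the highest, and the insulin receptor INSR had 16.7, 16.6 and 18.5 CPM. SLC2A4, the insulin-responsive glucose transporter of fat and muscle, was listed at 8, 15 and 16 counts, and whether this reflects its level or, as may apply to COX6B1, the counting was not tested. Among the receptors that drive lipolysis, values were near 0 for 2 beta-adrenergic ones, with 1, 2 and 2 counts for ADRB1 and 7, 0 and 1 for ADRB3, whereas the natriuretic peptide receptor NPR1, another lipolytic receptor, had 36.9, 60.4 and 52.7 CPM. Of 15 thermogenic genes 5 (33.3%) were detected, against 57.9% of protein-coding names, and only ELOVL3 averaged over 10 CPM. UCP1, the uncoupling protein of brown fat, had 5, 1 and 0 counts.

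Glycolytic enzymes were abundant, with 17 of 19 detected, led by GAPDH (3348 ± 374 TPM), LDHA (1715 ± 141 TPM), ENO1 (1383 ± 104 TPM) and ALDOA (990 ± 56.3 TPM). The list held 0.965%, 0.873% and 0.846% of the counts, and 11 of the 17 were highest in library 1, against 35.7% of all detected genes.

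Among secreted products of adipose tissue, 26 of 33 genes in the file were detected. TIMP1 (5710 ± 722 TPM), the highest, and PTX3 (3373 ± 557 TPM) stood above galectin LGALS1 (1789 ± 210 TPM), CFD, the complement factor known as adipsin (1429 ± 126 TPM), cystatin CST3 (1323 ± 58.4 TPM), apolipoprotein APOE (721 ± 126 TPM) and FSTL1 (567 ± 51.7 TPM). CFD was level at 769, 872 and 774 CPM and exceeded ADIPOQ by a TPM ratio of 3.53 ± 0.757, or 2.34 ± 0.502 with the union of exons as length. PTX3 was lowest in library 1, while TIMP1 was highest there. RETN and ITLN1, made largely by other cells of human fat, and LCN2 had 0 counts, and RARRES2, the gene of chemerin, had 2, 0 and 0.

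The extracellular matrix took many reads. The 2 matrix lists and the collagen chains together held 10.4%, 10.5% and 10.01% of the counts, above the mitochondrially encoded genes, but 5.03% ± 0.201 (SD, n = 3) of the summed TPM, below the 20.4% of those genes and the 12.6% of the ribosomal proteins. Of the 148 genes 113 were detected. Of 59 glycoproteins and proteoglycans 54 were detected and 35 averaged at least 100 CPM. Per length FN1 (4365 ± 169 TPM) and THBS1 (2984 ± 442 TPM) were followed by SRPX (2319 ± 300 TPM), TGFBI, an integrin-binding protein (2073 ± 307 TPM), TNC (1145 ± 86.2 TPM), CCN1 (1031 ± 72.1 TPM), dermatopontin DPT (847 ± 27.7 TPM) and SPARC (811 ± 32.0 TPM). The laminin chains LAMC1 and LAMB1, which assemble together in basement membranes, kept a TPM ratio of 1.11, 1.10 and 1.11, which was as steady but 3.41 ± 0.0235 with the union of exons as length. Fibrillin FBN2, a mainly fetal form, had 0 counts.

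Collagen VI dominated the collagens. Of 44 chains in the file 22 (50%) were detected, against 57.9% of protein-coding names, and 19 averaged at least 10 CPM. COL6A1, COL6A2 and COL6A3 form 1 heterotrimer of microfibrils around fat cells, and stood at 2560 ± 61.3, 2114 ± 121 and 1297 ± 64.0 TPM. COL6A1 exceeded COL1A1, the main chain of fibrillar collagen I, by a TPM ratio of 5.76, 6.73 and 8.89. COL1A1 had 1214, 1071 and 819 CPM, while COL6A1 stayed within 4971 to 5179 CPM. The COL1A2 (587 ± 56.3 TPM), COL3A1 (538 ± 69.0 TPM), COL4A1 (419 ± 10.5 TPM) and COL12A1 (405 ± 26.7 TPM) chains came next. COL1A1 (370 ± 74.8 TPM) was below COL1A2 in every library, with a ratio of 0.678, 0.656 and 0.545, although collagen I holds more of the former chain. With the union of exons as length the ratio was closer to even, at 0.877 ± 0.0995. The basement membrane chains COL4A1 and COL4A2, transcribed head to head from a shared promoter, kept a ratio of 1.31 ± 0.0470. COL4A2 was at 320 ± 5.74 TPM, and the collagen V chains COL5A2 and COL5A1, which nucleate fibrils, at 215 ± 20.4 and 162 ± 19.8 TPM. Lower down were COL16A1 at 142 ± 7.56 TPM, COL5A3 at 60.1 ± 7.97, COL27A1 at 30.2 ± 1.93 and COL8A1 at 29.7 ± 7.08 TPM. COL18A1, COL4A6, COL4A5 and COL7A1 lay between 2.42 and 8.18 TPM. The chains COL6A5, COL20A1, COL22A1, COL23A1 and COL26A1 had 0 counts in every library.

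**Figure D4:**
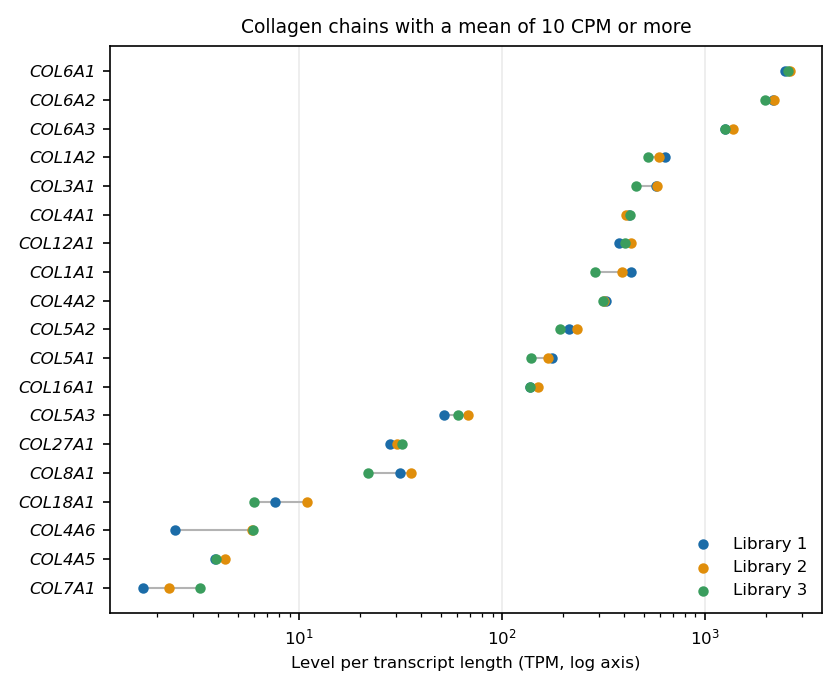
The 19 collagen chains with a mean of at least 10 CPM, as level per transcript length (TPM, log axis), 1 point per library. The 3 collagen VI chains lie above all others, and COL1A1 has its lowest point in library 3.

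Genes that process the matrix were detected for 37 of 45 members. TIMP1 was the highest of them. MMP2, a gelatinase, was at 1655 ± 93.4 TPM, and TIMP1 exceeded it by a TPM ratio of 3.46 ± 0.472. P4HB (694 ± 16.8 TPM), the shared subunit of collagen prolyl hydroxylase, the procollagen enhancer PCOLCE (593 ± 54.5 TPM), the protease inhibitor SERPINE2 (543 ± 166 TPM), the lysosomal protease CTSL (543 ± 16.9 TPM) and the collagen chaperone SERPINH1 (494 ± 42.5 TPM) followed. SERPINE2 was the least steady of them, with 766, 515 and 434 CPM. MMP9, a gelatinase of leukocytes, had 0 counts.

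Of 48 genes of the IGF system and growth factors 38 (79.2%) were detected, against 57.9% of protein-coding names. IGFBP4, which binds insulin-like growth factors, was well above the rest at 3063, 2032 and 1794 CPM (2202 ± 651 TPM) and was highest in library 1. The Wnt inhibitor DKK1 (567 ± 56.2 TPM), the angiogenic VEGFA (272 ± 29.3 TPM), the activin chain INHBA (198 ± 30.1 TPM), IGFBP7 (134 ± 21.2 TPM), IGFBP3 (129 ± 15.6 TPM), FGF2 (127 ± 7.89 TPM) and IGFBP6 (122 ± 8.81 TPM) came next. IGFBP1, FGF10 and FGF21 had 0 counts.

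Without LPS the cells carried several chemokine messages, and 19 of 44 cytokines and chemokines (43.2%) were detected, against 39.5% of all gene names and 57.9% of protein-coding names. CXCL12, a homeostatic chemokine of stromal cells, was the highest per length at 1086 ± 193 TPM, with 789, 1086 and 1097 CPM. CCL2, which attracts monocytes, had 93.8, 173 and 162 CPM. CXCL8, which attracts neutrophils, had 120, 149 and 143 CPM and IL6 had 45.5, 54.1 and 54.2 CPM. All 4 were lowest in library 1, the lowest library for 32.1% of all detected genes. CXCL1 (148 ± 11.9 TPM), the macrophage growth factor CSF1 (127 ± 9.37 TPM), CXCL5 (107 ± 14.5 TPM) and the interleukin-1 antagonist IL1RN (96.7 ± 17.4 TPM) were also in the upper 8, where IL6 had 96.1 ± 9.55 TPM. CXCL9, CXCL10, CXCL11, CCL3, CCL4, CSF2, IL10, IFNB1 and IFNG had 0 counts in every library.

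Dexamethasone was present to the end in all 3 libraries, and its part in the levels of glucocorticoid targets was not tested. Of 26 such targets 24 were detected, against 57.9% of protein-coding names, with a median of 128 CPM. MT2A (881, 1010 and 1117 CPM) and MT1X (650 ± 25.8 TPM) are metallothioneins with close paralogs. HSD11B1, which regenerates cortisol, stood at 945 ± 155 TPM and was lowest in library 2 (674, 493 and 692 CPM). The acute-phase gene SAA1 (306 ± 66.6 TPM), glutamine synthetase GLUL (291 ± 39.5 TPM), MT1E (279 ± 31.6 TPM) and the receptor chaperone FKBP5 (275 ± 23.8 TPM) followed. Of the 24 detected, 17 were highest in library 3, against 29.97% of all detected genes. All 30 genes of iron storage, stress defence and protein folding were detected, and 28 averaged at least 100 CPM. GPX3, a secreted peroxidase of fat, was the least steady of its upper 8 at 1092, 1561 and 2376 CPM. The chaperone HSPA8 (1980 ± 47.6 TPM) and the prolyl isomerase PPIB (1690 ± 46.4 TPM) varied little.

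Of 32 stromal and progenitor genes in the file, 23 were detected and 16 of these were highest in library 1, against 35.7% of all detected genes. Per length the order was VIM (3453 ± 134 TPM), the stromal receptor CD248 (1522 ± 163 TPM), the integrin ITGB1 (974 ± 63.8 TPM), S100A4 (960 ± 177 TPM), CD44 (423 ± 32.4 TPM), PDGFRB (354 ± 18.0 TPM), THY1 (350 ± 22.9 TPM) and SNAI2 (321 ± 18.3 TPM), and PDGFRB and THY1 overlapped. DLK1, the preadipocyte factor, and WT1, a marker of visceral fat progenitors, had 0 counts. Cytoskeletal genes were detected for 20 of 23 members, led by ACTB, TMSB10 (4064 ± 177 TPM), ACTG1 (3941 ± 455 TPM) and VIM. Of 39 HOX genes, which record position along the body, 17 (43.6%) were detected, against 39.5% of all gene names and 57.9% of protein-coding names. Cluster C was the highest at 140 ± 6.08 summed TPM. Cluster B had 37.1 ± 1.97, A 15.3 ± 1.47 and D 11.3 ± 1.58 summed TPM. HOXC10 was the highest HOX gene at 62.5 ± 5.23 TPM.

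Proliferation genes were low but present: 21 of 23 (91.3%) were detected, against 57.9% of protein-coding names, and none averaged over 33.3 CPM. PCNA, the replication clamp (35.4 ± 3.80 TPM), and MCM3, a replication licensing factor (22.9 ± 2.44 TPM), were the highest per length, and the cell cycle genes CCNB1, TPX2, RRM2 and UBE2C followed. RRM2, which makes deoxynucleotides, had 20.8, 12.1 and 7.88 CPM. Library 1 was the highest for 18 of the 21, against 35.7% of all detected genes. The list of growth arrest and immortalization was headed by TERT, the catalytic subunit of telomerase, with 598, 506 and 465 CPM (274 ± 37.0 TPM). The line was immortalized with hTERT, and counts per gene cannot tell a transgene from the natural locus (chr5:1253147-1295068, minus strand). MYC (228 ± 6.02 TPM), the cyclin CCND1 (204 ± 29.3 TPM) and the arrest gene CDKN1A (108 ± 9.37 TPM) were next.

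Markers of other cell types were mostly not detected by the rule of 1 CPM. Of 127 such genes 24 (18.9%) were detected, against 57.9% of protein-coding names, and 44 were at or under 3 counts in every library. The summed CPM of the 127 was 2013, 1774 and 1540. Most of this sum was COL1A1, which is also on the stromal list, with a mean of 1035 CPM against 1776 CPM for the 127. Markers of B and plasma cells, pan-leukocyte and mast cells, skeletal muscle, epithelium and mesothelium, and red cells had 0 members detected. Their summed CPM was 0.371 to 0.873, 0.832 to 1.13, 0.650 to 1.74, 1.37 to 2.02 and 0.260 to 0.873. Of 14 macrophage markers 3 were detected, with CD68, a lysosomal protein that many cells make, at 55.0, 49.8 and 52.3 CPM, while C1QA, C1QB, AIF1, TYROBP and MARCO had 0 counts. CD3D, CD3E, CD8A and NKG7 had 0 counts among T and NK cell markers, of which 2 of 11 were detected. Of 11 endothelial markers 3 were detected, PECAM1, VWF and TEK at 6.88 to 10.8 CPM, and CLDN5 had 0 counts and CDH5 0, 0 and 1. Smooth muscle and pericyte markers were the best represented, with 7 of 10 detected, the channel gene KCNJ8 highest at 31.4 ± 4.19 TPM and MYH11 and DES under 1 CPM. The osteoblast list held COL1A1, which stromal cells share, with RUNX2 at 40.03 to 46.1 CPM and SP7 at 0 counts. COMP, a cartilage and tendon protein, led the chondrocyte list at 169 ± 43.3 TPM (243, 141 and 204 CPM). TUBB3 led the neuron and glia list at 124 ± 11.2 TPM, with SOX10 at 0 counts, and APOB was the only hepatocyte marker detected, at 1.90, 3.46 and 2.25 CPM.

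**Figure D5:**
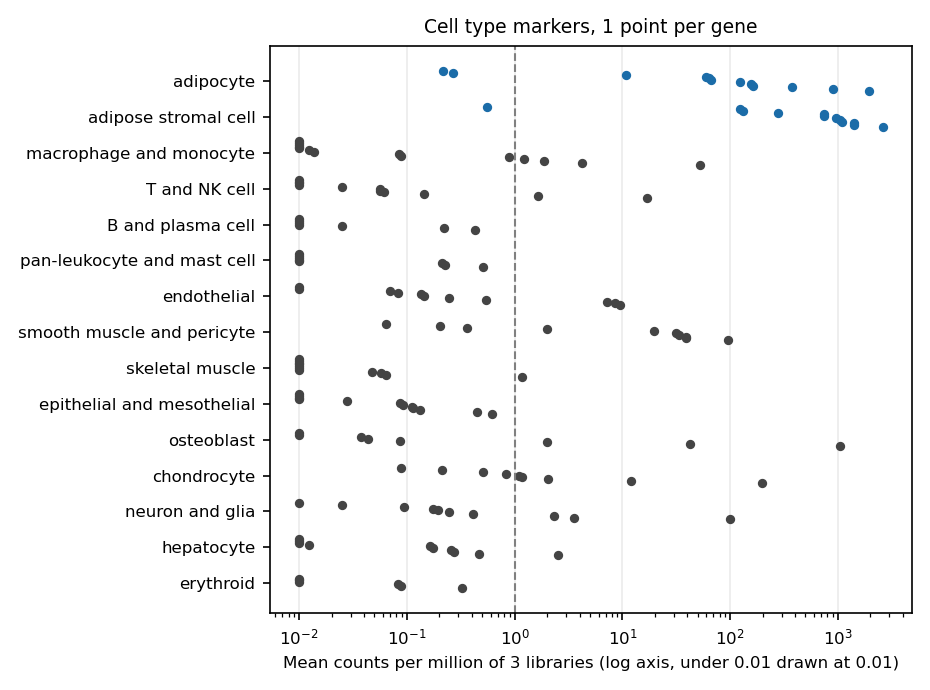
Mean CPM over the 3 libraries (log axis, values under 0.01 drawn at 0.01) of the genes of 15 marker lists, 1 point per gene, blue for the adipocyte and adipose stromal lists, with a dashed line at 1 CPM. Of the adipocyte markers 10 of 12 and of the stromal markers 11 of 12 lie right of the line in every library, against 24 of 127 for the other lists together.

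Among whole families, chosen after the values were seen, 303 of 397 olfactory receptors, 80 of 94 keratin-associated proteins, 37 of 39 beta-defensins and 15 of 17 type I interferons had 0 counts in every library. Of 13 crystallins 9 had 0 counts, and CRYAB, which also serves as a chaperone outside the lens, had 1835, 1657 and 2183 CPM. At this depth 3 counts correspond to 0.0557, 0.0560 and 0.0624 CPM, so a gene with 0 counts may have been present below that level.

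The libraries differed little for most genes. Among 8400 genes with a mean of at least 10 CPM the median coefficient of variation was 6.53%, against 2.185% from counting alone, and 37 (0.4405%) had a highest library at least 2 times the lowest. SOX9, a factor of cartilage and progenitor cells, differed most, with 1067, 869 and 7 counts. CYP4B1, a cytochrome P450, had 12.9, 43.8 and 64.7 CPM, and CHI3L1, a chitinase-like glycoprotein, had 4.85, 8.39 and 18.7 CPM. The matrix genes ECM1 (23.8, 28.8 and 7.90 CPM), OGN (21.4, 16.9 and 7.21 CPM), the stromal protease FAP (31.7, 32.9 and 12.3 CPM) and the lipocalin APOD (186, 193 and 72.3 CPM) were lowest in library 3. IGFBP2 (8.95, 7.34 and 21.3 CPM) was high in library 3. RRM2 and the scaffold gene MPDZ (28.2, 20.9 and 11.0 CPM) completed the 10 widest. Of the 37 genes 18 were highest in library 3, 9 in library 2 and 10 in library 1, and 17 were lowest in library 1, 5 in library 2 and 15 in library 3. Over all detected genes 29.97% were highest in library 3 and 32.1% lowest in library 1. With library 3 left out the 37 became 8, and with library 1 left out 14. Lowest in library 1 and highest in library 3 were ADH1B, an alcohol dehydrogenase abundant in fat, with 694, 1215 and 1550 CPM, and LBP, the LPS-binding protein, with 51.7, 80.9 and 121 CPM. COL2A1, the cartilage collagen, had 3.53 CPM in library 1 and 0 counts in the others.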

How the data were processed

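Polyadenylated RNA was made into Illumina Stranded mRNA libraries. Per the submitters' processing notes, bcl2fastq 2.19, kallisto 0.44.0 and DESeq2 1.32.0 were used with GRCh38. The authors pseudoaligned the reads with kallisto and deposited estimated counts summed per gene name, without scaling for library size or length. The annotation release behind the index and the strand setting are not given in the sources used here. A row without a gene name (0.235% to 0.246% of the counts) was left out.

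From the deposited estimated counts, CPM were computed on named genes. TPM were counts per length of the GENCODE v44 canonical transcript, scaled to the same sum in each library over the 28647 names with a length. The 254 names without one held 0.416% of the counts, mostly MTRNR2L12 (1777 ± 123 CPM, SD, n = 3). Detected means at least 1 CPM in every library. Levels are means ± SD over 3 libraries, and no test was made, since the account concerns 1 group. Nothing in the labels says that the libraries came from separate cultures, so the SD may be technical. Intervals, and the limit of 3 counts that a count of 0 allows, cover counting error only.

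The libraries, 18 role lists and 15 marker lists (633 of 635 genes in the file) were chosen with earlier results of these data known. Named were the 30 highest genes by TPM and by CPM, in each list up to 8 members highest by TPM and standard examples at or under 3 counts, collagens with a mean of at least 10 CPM, the 10 genes with the largest ratio between libraries, and KLF5, CXCL8, IL6, CCL2 and LINC01230. Other genes named, such as LPL, LEP, CEBPA, LIPE, SLC2A4, INSR, CD36, NPR1, ADRB3, UCP1, CIDEA, PLIN5, CD34, COX6B1, ADH1B, LBP, COL2A1 and the HOX genes, were chosen after their values were seen. Values of some genes that this rule names are not reported here. Scripts ran in Python 3.11.15 (pandas 2.3.3, numpy 2.4.6, matplotlib 3.10.9) and R 4.3.3 (edgeR 4.0.16, for TMM factors only) and were tested on simulated counts.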

Additional observations from a re-analysis of the deposited data

How the results depend on the processing

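The alternatives were TMM scaling, a total without mitochondrially encoded genes, detection at 0.5 or 5 CPM, at least 10 counts in total, 2 other transcript lengths, a lower limit for the spread, and each library left out in turn. TMM scaling moved no count by over 1.5 times and no share by over 1 SD. Without mitochondrially encoded genes, ribosomal proteins held 6.07%, collagen chains 2.80% and the matrix lists with collagens 11.3% of the counts, as the smaller total requires. The 10 highest nuclear genes held 8.39%, against 11.2% for the 10 highest of all genes, which are a different set. At 5 CPM, 15 markers of other cell types were detected, against 24 at 1 CPM. The genes with a ratio of at least 2 between libraries numbered 418 when means of at least 1 CPM were admitted. Without 1 library they numbered 8 to 33, lowest without library 3 and 14 without library 1. A filter of 10 counts in total gives no count of genes at 0. With the union of exons as length, 23 of the 30 highest genes by TPM were kept, and 26 with 200 bases taken off each length. Of the TPM ratios, those of FTL to FTH1, FABP4 to FABP5, PLIN2 to PLIN1, CFD to ADIPOQ, LAMC1 to LAMB1 and PPARG to CEBPA moved by over 1.5 times with the union of exons, as given beside them. The ratios of COL6A1 to COL6A3, SLC2A1 to INSR and LAMB1 to LAMA4 also did, with means of 3.06, 7.23 and 0.791. By canonical length they were 1.97, 12.3 and 1.57. PPARG moved most among the 38 genes checked, by a factor of 4.30 under the union of exons. LEP averaged 0.214 CPM, and 0.103 CPM without library 3. The 3 libraries set the precision: a gene under 0.0624 CPM cannot be told from 0. No paired analysis was possible because the results come from 1 group and no test.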
